A study of Mus musculus with 7 samples.

Results

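Paqr9, Smlr1, Igsf5, Mettl7b, Smcp, Depdc7, Reep6, Vwa8, Sec14l2 and Tmem150a are 10 genes of different families that were chosen because their transcripts were much higher in glycerol kinase knockout than in wild type newborn liver. They were measured by 13 probe sets, taken as every probe set whose platform annotation gives one of them as its only symbol, out of 45101 probe sets and 18193 named genes in all. The knockout group held livers of 4 male C57BL/6J mice that lack glycerol kinase (Gyk), taken on day of life 1, and the wild type group held livers of 3 male littermates of the same strain and age. Glycerol kinase turns glycerol into glycerol 3-phosphate, and the submitters chose day of life 1 because pups show no symptoms then. RNA came from each whole liver separately and each liver had 1 Affymetrix Mouse Genome 430 2.0 array, so replicates are animals. The loss is in the whole animal, and a newborn liver still makes blood cells.

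The 10 genes share no pathway by name, but several act on lipids or membranes. Paqr9 belongs to the progestin and adipoQ receptor family of multi-pass membrane proteins, which also holds the adiponectin receptors. Smlr1 is a small membrane protein of hepatocytes tied to the release of very low density lipoprotein, Mettl7b is a methyltransferase of the endoplasmic reticulum and lipid droplets, and Sec14l2 binds lipids such as tocopherol and squalene. Reep6 shapes the endoplasmic reticulum, and Tmem150a is a plasma membrane partner of the kinase that makes phosphatidylinositol 4-phosphate. Igsf5 is a junctional adhesion molecule best known from kidney and intestinal epithelium, Smcp is a cysteine-rich protein of sperm mitochondria, Vwa8 is a mitochondrial ATPase with a von Willebrand factor A domain, and Depdc7 carries a DEP domain.

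Upstream sequence of 250 bases was given for 7 of the 10 genes (RefSeq, GRCm38.p6), and not for Paqr9, Igsf5 and Reep6. The 3 windows below are shown because they hold the only matches to the short motifs searched on both strands. Mettl7b and Smcp each hold the letters CAAAGTC, part of the sequence that the liver nuclear receptor HNF4A is known to bind. This motif was searched after the sequences had been read. Each sequence reads 5′ to 3′ on the gene's own strand and ends at the last base before the annotated start, with the match in capitals (GACTTTG in Smcp is CAAAGTC on the other strand).
Mettl7b, chr10:128960989-128961238, minus strand: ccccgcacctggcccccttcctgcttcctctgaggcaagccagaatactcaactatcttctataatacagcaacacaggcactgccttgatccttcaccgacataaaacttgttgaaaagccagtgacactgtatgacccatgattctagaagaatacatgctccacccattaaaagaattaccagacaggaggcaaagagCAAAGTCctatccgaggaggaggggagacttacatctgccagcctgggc
Smcp, chr3:92589074-92589323, minus strand: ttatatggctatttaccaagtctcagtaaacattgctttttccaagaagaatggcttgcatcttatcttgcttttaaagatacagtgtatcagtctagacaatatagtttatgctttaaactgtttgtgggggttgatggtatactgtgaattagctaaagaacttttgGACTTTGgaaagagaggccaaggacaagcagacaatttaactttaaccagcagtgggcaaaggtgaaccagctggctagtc
Sec14l2, chr11:4118730-4118979, minus strand: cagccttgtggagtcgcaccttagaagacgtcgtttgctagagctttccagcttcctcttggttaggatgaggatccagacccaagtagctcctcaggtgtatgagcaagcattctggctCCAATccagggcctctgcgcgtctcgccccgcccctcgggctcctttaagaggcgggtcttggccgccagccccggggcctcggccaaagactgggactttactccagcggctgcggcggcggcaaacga
CAAAGTC stood in 2 of 7 windows, against 3.84% of 32851 mouse upstream windows of that length. Because this motif was picked from these same sequences, the comparison carries no test and shows no enrichment. The CCAAT box stood in Sec14l2 alone, against 33.8% of all windows. The nuclear receptor motif AGGTCA and the TATA box TATAAA stood in 0 of 7 windows, against 14.0% and 12.4% of all windows. These matches describe letters, not binding.

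Among the arrays, 2 stood apart from the rest by markers of another tissue. Knockout 3 carried transcripts of exocrine and endocrine pancreas that the other 6 livers had at low intensity. Ctrb1, the digestive enzyme precursor chymotrypsinogen, read 3162.7 intensity units in knockout 3, against 5.1 to 12.3 in the other 6 arrays. Cpa1, a pancreatic carboxypeptidase, read 497.9 in knockout 3, against 5.8 to 17.8 elsewhere. Ins2, an insulin gene, read 616.1, against 18.0 to 75.6 elsewhere. Of the 4 measured pancreas markers only Cela1 was not raised there, at 1704.2 in knockout 3 and between 825.7 and 1907.4 in the others. The same array had the highest 3′ to 5′ ratio of all 7 for each of the 4 control transcripts, 11.1 for the transferrin receptor against 7.22 to 8.24. Wild type 3 had the highest level of epidermal transcripts. Lor, a protein of the cornified skin layer, read 966.1 in wild type 3, against 97.9 to 178.0 in the other 6 arrays, and the keratin gene Krt10 read 766.8, against 100.6 to 205.2. Ivl, another listed epidermis marker, was dim and not raised there, at 31.5 in wild type 3 and 7.8 to 45.2 in the others. Results for the 10 genes are therefore given with and without knockout 3, by gene or in the plot of all their probe sets. Without wild type 3 they are given as a median and a range. The part of the pancreas and epidermal transcripts in them was not tested beyond that.

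**Figure D1:**
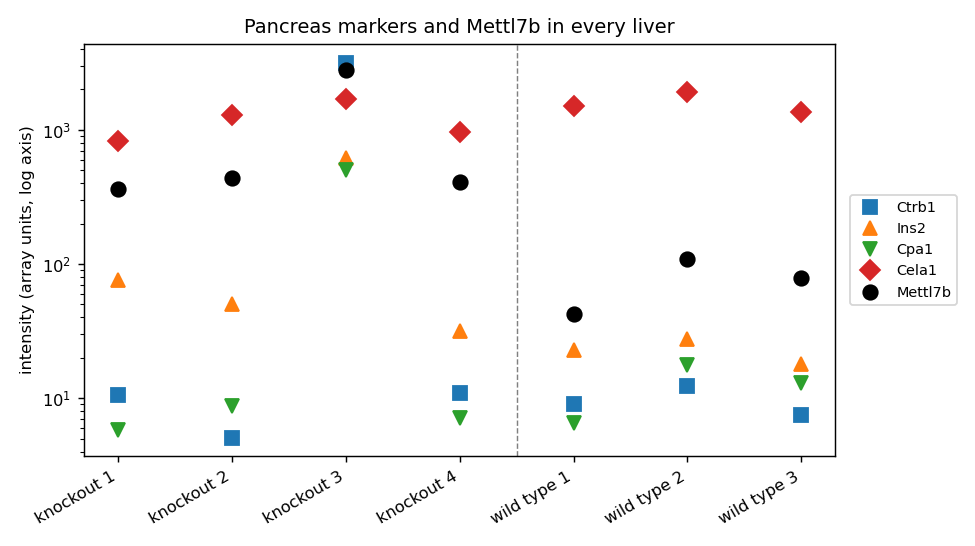
Intensity (log axis, array units) of 4 pancreas markers and Mettl7b in each of the 7 livers, knockout left of the dashed line and wild type right of it. Ctrb1, Cpa1 and Ins2 stand far higher in knockout 3 than in any other liver, and Mettl7b is also highest there.

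All arrays had been scaled to the same trimmed mean, 500.003 intensity units. Defining markers of hepatocytes were present in every array. Of 8 listed, 7 were measured, and their summed intensity was 161580 to 223780 in knockout and 171460 to 185190 in wild type livers, with 0 of 7 past limma's adjusted p of 0.05 and 1 at an unadjusted p under 0.05. Erythroid markers summed to 41273 to 45916 in knockout livers, against 51892 to 56425 in wild type livers. Of 5 tested, 2 (Slc4a1 and Rhag) were lower in knockout at a limma adjusted p under 0.05. With Epb42 and Alas2, also lower, 4 of 5 had an unadjusted p under 0.05, and Klf1 had a log2 fold change of -0.03. Endothelial markers summed to 7198 to 12648 in knockout and 12709 to 15213 in wild type livers, with 0 of 6 past limma's threshold and 3 at an unadjusted p under 0.05. Of those 3, Stab2 and Lyve1 had log2 fold changes of -0.51 and -0.71, and Tek one of 0.61. The share of all tested genes at an unadjusted p under 0.05 is not given here, so these unadjusted counts have no background. In whole liver, fewer cells of a type and less RNA per cell cannot be told apart. The part of these cell types in the results was not tested.

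Of 22518 probe sets bright enough to be tested, 529 were higher in knockout at an adjusted p under 0.05 (limma), which is 2.35%, and 426 were lower, which is 1.89%. Of the calls 55.4% were higher, or 71.3% when arrays were scaled to equal medians. Over all alternatives this share ran from 54.0% at an offset of 64 to 82.7% without wild type 3, and was 78.2% at a threshold of 0.01. Of the 13 probe sets, 12 were tested and 12 were called higher. The 10 genes were chosen from this contrast. That count, their fold changes, their lack of overlap and their calls kept or lost below are therefore descriptions without a test. Over the brightest probe set of each of the 10 genes, the median log2 fold change (knockout minus wild type, on log2(intensity + 16)) was 2.05, with a range of 1.31 to 2.92. Over all 22518 tested probe sets the median was -0.03. Without knockout 3 the median of the 10 genes was 2.07. Without wild type 3 it was 2.00, with a range of 1.25 to 2.98, and none of the 10 moved by more than 0.22 on the log2 scale, the move of Smcp to 2.82. All 4 knockout arrays lay above all 3 wild type arrays in the 12 tested probe sets, as they did in 9.4% of all tested ones, and in 12 of 13 with the untested one, against 6.14% over all probe sets. By the brightest probe set this held for 10 of the 10 genes, against 11.7% of tested genes.

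**Figure D2:**
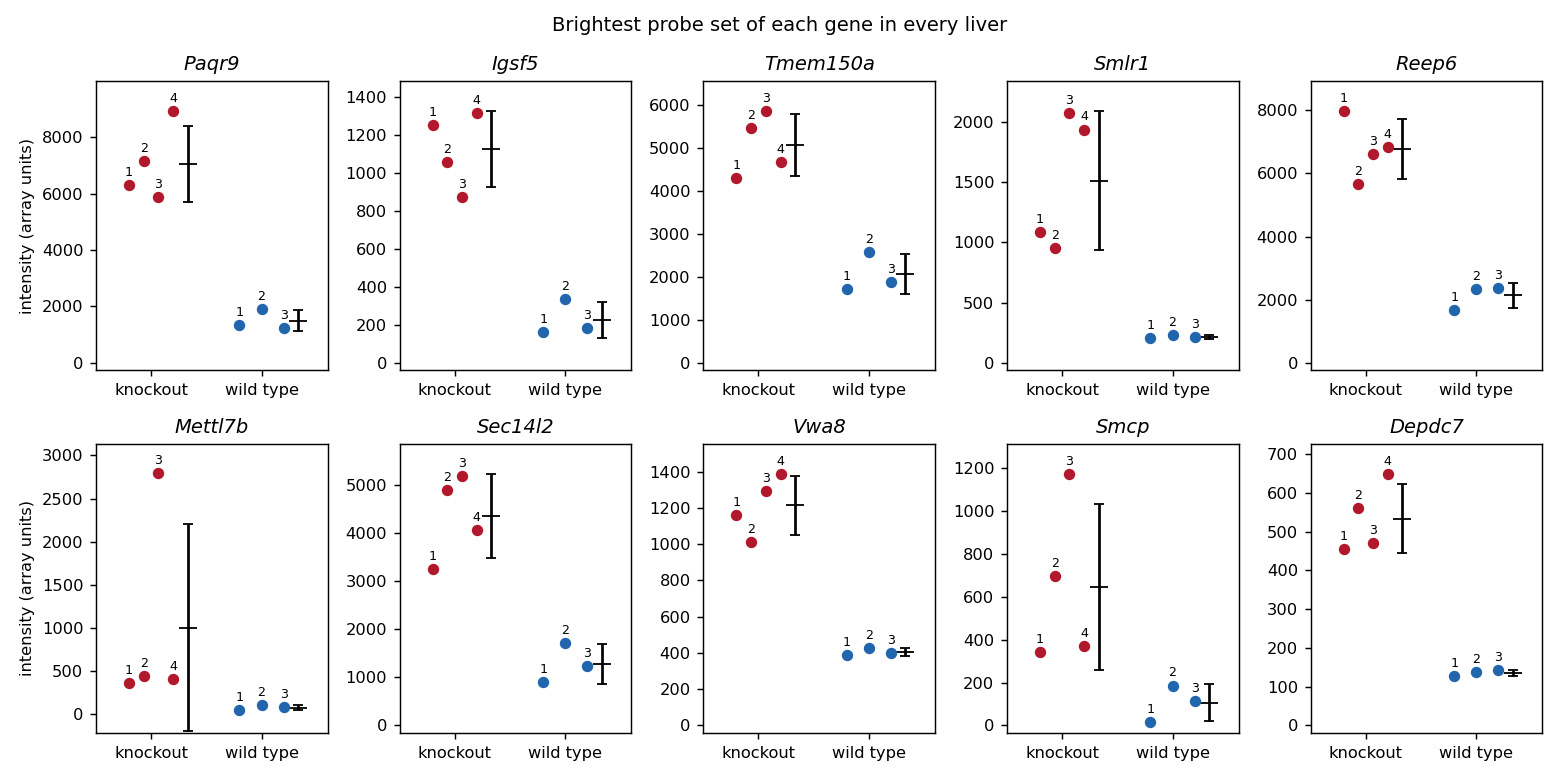
Intensity (array units, linear axis) of the brightest probe set of each of the 10 genes, with 1 numbered point per liver, knockout left and wild type right, and the mean with its SD as a black bar (n = 4 and 3). The groups are apart in every panel, and Mettl7b and Smcp have their highest value in knockout 3.

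Paqr9, Igsf5 and Tmem150a encode membrane proteins, mostly of the cell surface. The brighter probe set of Paqr9 read 6291.1, 7143.2, 5888.3 and 8923.0 in the knockout livers, against 1321.1, 1905.0 and 1229.7 in the wild type livers. The lowest knockout value was 3.09 times the highest wild type value. The means were 7061 ± 1347 in knockout and 1485 ± 366 in wild type livers (SD, n = 4 and 3), a log2 fold change of 2.25 ± 0.19 (standard error). A second probe set of Paqr9 read 2295.2, 5122.0, 3400.0 and 4706.9 in knockout and 613.9, 1539.8 and 835.1 in wild type livers. It moved the same way, by 1.98 ± 0.33 on the log2 scale, with its groups closer, at 1.49 times between the nearest values. Within each group it followed its own order: knockout 1 was lowest by this probe set and knockout 3 by the other. Its call was lost without wild type 1 or 3, while the brighter probe set kept its call whichever array was left out.

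Igsf5 read 1253.7, 1058.1, 874.2 and 1314.6 in the knockout livers, against 161.8, 336.5 and 180.2 in the wild type livers. Knockout 3 was the lowest of its group here, and wild type 2 stood above the other wild type livers. On the log2 scale the difference was 2.29 ± 0.25, and 2.40 without knockout 3. Igsf5 is a gene of kidney and intestinal epithelium elsewhere, so markers of both were read beside it. The intestinal markers Vil1, Lct, Cdx1 and Cdx2 stayed under an intensity of 50 in every array. Fabp2, an intestinal fatty acid binding protein, was the exception, at 482.1, 630.7, 1379.6 and 1325.6 in knockout and 124.1, 194.2 and 353.9 in wild type livers (log2 fold change 1.99, limma adjusted p = 0.0310). The summed kidney markers were 202.1 to 290.6 in knockout and 123.4 to 199.5 in wild type livers over 5 genes, none bright enough to be tested. Their part in the Igsf5 values was not tested.

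Tmem150a had the smallest difference of the 10. It read 4292.5, 5461.6, 5849.0 and 4659.9 in the knockout livers, against 1709.7, 2583.6 and 1877.7 in the wild type livers. All knockout livers were above all wild type livers, the nearest pair 1.66 times apart. The log2 fold change was 1.31 ± 0.17, and 1.23 without knockout 3.

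Among the genes of the endoplasmic reticulum and lipoprotein release, Smlr1 had wild type values that hardly differed and knockout values in 2 pairs. It read 1084.2, 957.4, 2081.2 and 1940.2 in the knockout livers, against 203.0, 231.9 and 212.3 in the wild type livers. Knockout 3 and 4 stood well above knockout 1 and 2, and the lowest knockout liver was still 4.13 times the highest wild type liver, the widest gap of the 10 genes. The log2 fold change was 2.65 ± 0.27, and 2.47 without knockout 3.

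Reep6 varied little within a group. It read 7973.4, 5680.2, 6614.0 and 6832.2 in knockout livers, against 1683.6, 2341.3 and 2372.3 in wild type livers. Knockout 3 lay in the middle of its group, and the log2 fold change of 1.67 ± 0.16 was 1.68 without it.

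With all arrays Mettl7b had the largest fitted difference of the 10 genes, a rank that it lost to Smlr1 without knockout 3 and at an offset of 64. It read 359.5, 438.8, 2799.9 and 407.4 in the knockout livers, against 42.3, 109.2 and 79.1 in the wild type livers. Knockout 3 stood far above every other knockout liver, and it was the liver with the pancreas transcripts. The 4 knockout livers averaged 1001 ± 1199, and knockout 1, 2 and 4 averaged 402 ± 39.9 (SD, n = 3), against 76.9 ± 33.5 in wild type livers. The log2 fold change was 2.92 ± 0.63 with all arrays and 2.23 without knockout 3, and the lowest knockout value was 3.29 times the highest wild type value in either case. Its call was lost without knockout 2, knockout 4 or any 1 of the wild type arrays, and was kept without knockout 1 or 3.

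The lipid-binding gene Sec14l2 read 3248.6, 4910.9, 5197.1 and 4066.9 in the knockout livers, against 893.7, 1715.7 and 1233.1 in the wild type livers. Wild type 1 was the lowest and wild type 2 the highest of its group, as in most of the 10 genes. Its fold change on the log2 scale was 1.78 ± 0.23, and 1.69 without knockout 3.

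Of the mitochondrial pair, Vwa8 was measured by 3 probe sets, of which 2 moved and 1 did not. Its brightest read 1159.2, 1014.5, 1295.2 and 1388.0 in knockout livers, against 386.1, 428.3 and 400.9 in wild type livers, a log2 fold change of 1.54 ± 0.15. The second read 1286.1, 897.0, 659.6 and 1454.0 in knockout and 327.8, 321.8 and 277.8 in wild type livers, at 1.68 ± 0.25, with knockout 3 lowest and its call lost only without wild type 3. These agree in size but not in the order of the knockout livers. The third was dim, at 50.4, 75.2, 8.3 and 60.9 in knockout and 46.4, 40.3 and 46.2 in wild type livers, and was not tested. Its groups overlapped through knockout 3 alone, and its log2 fold change was -0.05 ± 0.43 with all arrays and 0.36 without knockout 3.

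Smcp read 344.4, 697.8, 1173.7 and 369.6 in the knockout livers, against 17.9, 186.0 and 115.4 in the wild type livers. Both groups were spread widely, with knockout 3 highest and wild type 1 under an intensity of 50. The log2 fold change was 2.60 ± 0.59, 2.26 without knockout 3 and 1.85 without wild type 1, and its call was kept only without knockout 1 or without wild type 2. Markers of testis germ cells, where Smcp is best known, were read beside it. All 9 were measured, 0 were bright enough to be tested, 5 lay under 50 in every array, and their sums were 188.8 to 379.4 in knockout and 292.5 to 346.1 in wild type livers. Their part in the Smcp values was not tested.

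Depdc7 read 455.2, 560.5, 469.8 and 648.7 in the knockout livers, against 126.8, 136.6 and 142.1 in the wild type livers. It had the tightest wild type values with Smlr1 and Vwa8, and a gap of 3.20 times between the nearest values of the groups. This was a log2 fold change of 1.85 ± 0.18, and 1.90 without knockout 3. Depdc7, Igsf5, Smlr1, Reep6, Sec14l2, Tmem150a and the brighter probe sets of Paqr9 and Vwa8 kept their calls whichever array was left out. The genes were chosen on these same arrays, so the kept calls are a description without a test. Over all tested probe sets the 955 calls became 127 without wild type 3.

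**Figure D3:**
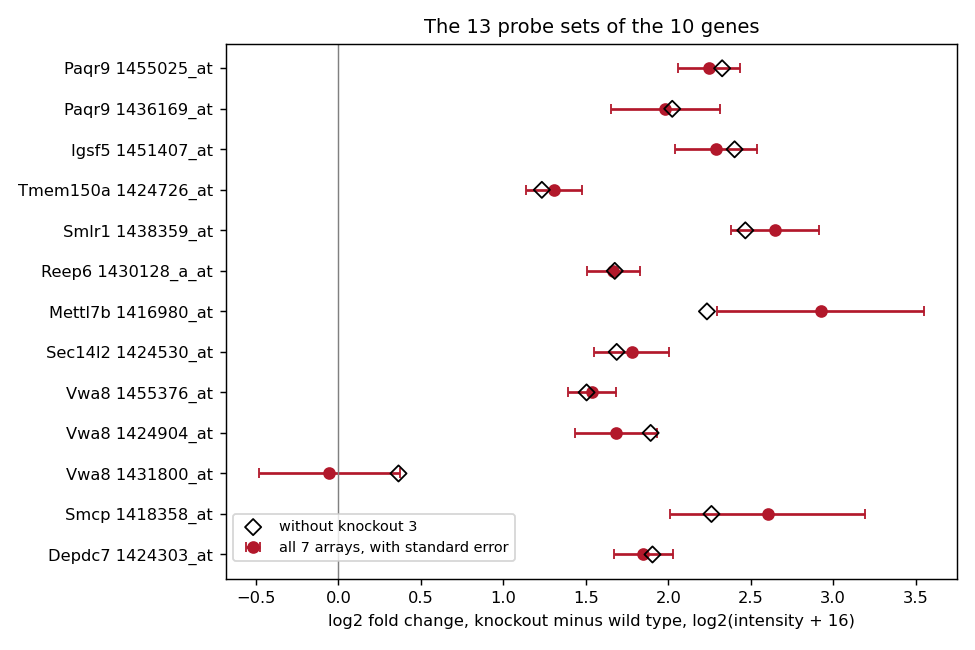
Log2 fold change (knockout minus wild type, on log2(intensity + 16)) of all 13 probe sets as filled points with standard errors, and without knockout 3 as open diamonds. Mettl7b moved most when that array was left out, to 2.23 against 2.92, and the dimmest probe set of Vwa8 stood near 0.

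The 10 genes were not ordered alike over the knockout livers, as the plot of profiles shows, while most had the same order over the wild type livers. Wild type 1 was the lowest wild type liver in 9 of 10 genes and wild type 2 the highest in 8 of 10. Among all 11159 tested genes wild type 1 was lowest in 38.0% and wild type 2 highest in 32.2%, and among the 345 genes called higher in knockout in 53.0% and 54.2%. Both held together in 7 of the 10 genes, in 21.0% of all tested genes and in 36.8% of those called higher. Among knockout livers, knockout 3 was highest in 5 genes, against 26.2% of all tested genes and 37.1% of those called higher. Knockout 4 was highest in 4, against 18.5% and 27.8%, and knockout 1 lowest in 5, against 24.8% and 34.2%. Since the genes were chosen on the same arrays, these counts are descriptions only. The median of the 10 profiles, each gene's log2 level minus its wild type mean, was 1.91, 2.02, 1.97 and 2.07 in the knockout livers, against -0.28, 0.37 and -0.01 in the wild type livers.

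**Figure D4:**
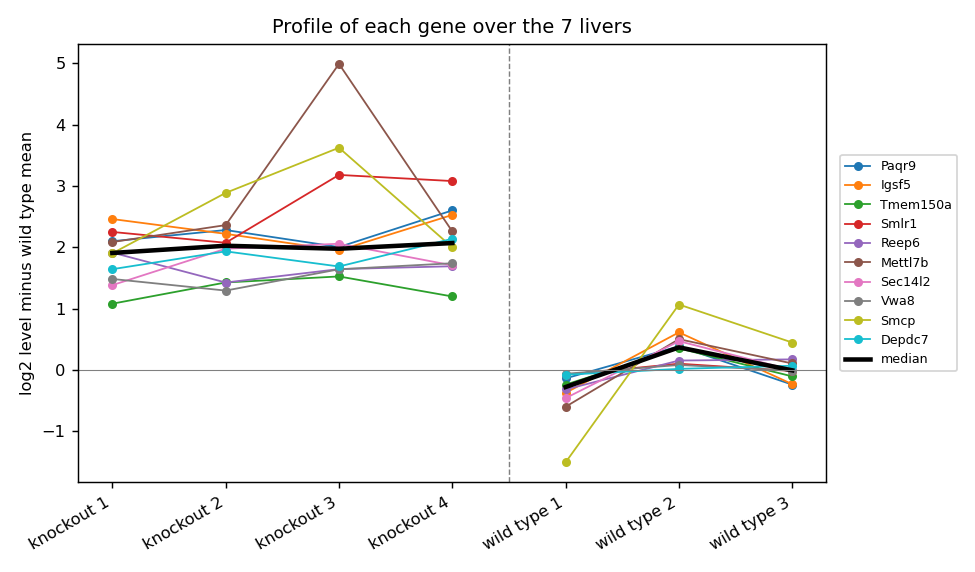
Log2 level minus the wild type mean of each of the 10 genes in the 7 livers (lines join the values of 1 gene within a group, and the livers have no order), with the median in black. The median is near 2 in all 4 knockout livers, and Mettl7b and Smcp leave it most in knockout 3.

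The 6 genes nearest to that median profile, no members themselves, included enzymes that break down fatty acids and aldehydes. Likeness was the root mean square log2 difference over the 7 arrays, among 11149 genes. Aldh3a2, a fatty aldehyde dehydrogenase, was nearest at 0.143, with 2025.7, 2449.2, 2002.4 and 2775.2 in knockout and 523.8, 692.0 and 584.7 in wild type livers. 1810019D21Rik followed at 0.152, and Ehhadh, the peroxisomal bifunctional enzyme of fatty acid oxidation, at 0.186. Inhbc, an activin subunit made by hepatocytes, stood at 0.237. Cpt2, the inner carnitine palmitoyltransferase of mitochondria, stood at 0.240, with 4452.4, 4418.0, 5327.3 and 5018.7 in knockout and 690.0, 1791.2 and 992.0 in wild type livers. The dehydrogenase-like Hsdl2 of peroxisomes stood at 0.264. All 6 had wild type 1 lowest and wild type 2 highest. They were chosen for likeness, so their agreement carries no test.

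To ask whether families or partners of the 10 genes moved with them, 80 relatives were listed, of which 73 were measured and 49 tested. The list was drawn up with earlier results of these data known, so its counts, also those by group below, are descriptions. Over the brightest probe set of each, 6 were higher and 2 lower in knockout, against 3.09% and 1.67% of all 11159 tested genes, and the median log2 fold change was 0.12 against -0.0013 over those genes. The 6 higher calls came from the Paqr9 and Smlr1 groups. The number of calls changed with the array left out. Without wild type 3 it was smallest, with 1 relative, Sar1b, called higher in knockout. It was 4 without wild type 1, 5 without knockout 2 or 4, 6 without wild type 2 and 7 without knockout 1. Without knockout 3 there were 9 calls, 7 higher and 2 lower.

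**Figure D5:**
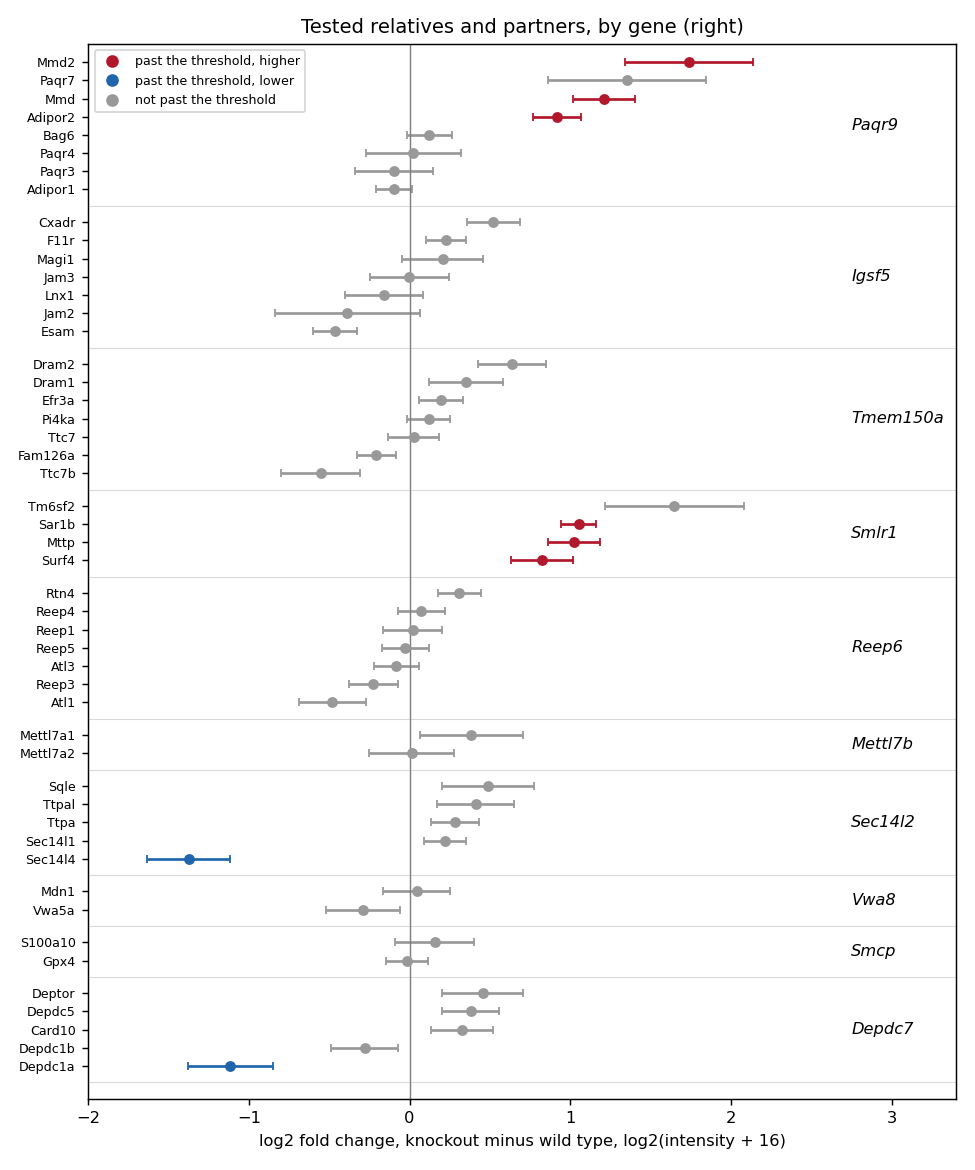
Log2 fold change with standard error (knockout minus wild type, on log2(intensity + 16)) of the 49 tested relatives and partners, grouped by the gene named at right. Red points passed an adjusted p of 0.05 upward, blue points downward, and grey points did not pass; the passes upward are in the Paqr9 and Smlr1 groups.

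Of 8 tested relatives of Paqr9, 3 were higher. Adipor2, an adiponectin receptor of liver, read 8407.8, 6843.3, 5900.1 and 7499.2 in knockout livers, against 3165.8, 4211.1 and 3955.3 in wild type livers, a log2 fold change of 0.92 ± 0.15 (limma adjusted p = 0.0129). Mmd, a family member first named for its rise as monocytes become macrophages, read 2577.0, 3832.4, 3353.6 and 3611.3 in knockout and 1115.3, 1846.5 and 1388.7 in wild type livers, a difference of 1.21 ± 0.20 (limma adjusted p = 0.0121). Its paralog Mmd2 read 398.6, 889.5, 1399.2 and 402.9 in knockout and 151.4, 227.9 and 197.8 in wild type livers (1.74 ± 0.40, limma adjusted p = 0.0420). Groups did not overlap in these probe sets of the 3 genes, and knockout 3 was highest for Mmd2. A second probe set of Adipor2 read 1001.0, 861.8, 538.1 and 745.2 in knockout livers, against 263.8, 437.4 and 567.4 in wild type livers. Its groups overlapped and it did not pass (0.90 ± 0.27, limma adjusted p = 0.0940). Among the fits without 1 array, Adipor2 and Mmd lost their calls in that without wild type 3, and Mmd2 without knockout 2 or any 1 wild type array. Adipor1, the other adiponectin receptor, stood at -0.10 on the log2 scale and did not pass, and Paqr7 stood at 1.35 (limma adjusted p = 0.148).

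Partners of lipoprotein export were listed beside Smlr1 with earlier results of these data known, and 3 of 4 were higher. Sar1b, the GTPase that loads lipoproteins into transport vesicles, read 10639.7, 9585.2, 8768.7 and 9544.7 in knockout livers, against 4429.4, 5035.9 and 4439.5 in wild type livers (1.05 ± 0.11, limma adjusted p = 0.0020). This was the one relative called whichever array was left out. Mttp, which loads lipid onto apolipoprotein B, rose by 1.02 ± 0.16 on the log2 scale (limma adjusted p = 0.0105), and lost its call without wild type 3. Surf4, a cargo receptor for lipoproteins, stood at 0.83 ± 0.19 (limma adjusted p = 0.0450), but its 4 other probe sets, at 0.16 to 0.63, did not pass, and its call was kept in 2 of 7 leave-one-out fits. Tm6sf2 stood at 1.65 ± 0.43 and did not pass (limma adjusted p = 0.0612).

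The 2 lower relatives ran against the member they were listed with. Sec14l4, a lipid-binding paralog of Sec14l2, read 1385.5, 756.6, 1711.6 and 1155.6 in knockout livers, against 3229.6, 2494.7 and 3833.7 in wild type livers (-1.37 ± 0.26, limma adjusted p = 0.0214). Its call was lost without knockout 4, wild type 1 or wild type 3, and the probe set may also read a related transcript. Depdc1a, a DEP domain gene of dividing cells, read 185.0, 116.0, 247.4 and 273.6 in knockout and 385.1, 446.8 and 507.7 in wild type livers (-1.12 ± 0.26, limma adjusted p = 0.0458). It did not pass when arrays were scaled to equal medians or quantile normalized, and among fits without 1 array it passed only without knockout 3. In the Reep6, Igsf5, Tmem150a, Mettl7b, Vwa8 and Smcp groups 0 of 27 tested relatives passed limma's adjusted p of 0.05. These groups are pooled here because they held no call, so the 0 was fixed by the grouping. Over all tested genes 3.09% were called higher and 1.67% lower. Of the 27, 6 had an unadjusted p under 0.05, a count without a background, since that share over all genes is not given. The brightest relative of each group other than those of Paqr9 and Smlr1 did not pass. Reep5, of the Reep6 family, stood at -0.03, and Gpx4, which shares sperm mitochondria with Smcp, at -0.01. F11r, a junctional adhesion molecule like Igsf5, stood at 0.23, Fam126a, of the Tmem150a kinase complex, at -0.21, and Vwa5a at -0.29. Ttpa, the tocopherol transfer protein listed with Sec14l2, stood at 0.29 and Depdc1b at -0.28. Mettl7a1, the paralog of Mettl7b, read 1320.3, 1158.9, 3286.6 and 1697.6 in knockout livers, against 992.9, 1457.9 and 1538.1 in wild type livers (0.39 ± 0.32, limma adjusted p = 0.526). Its groups overlapped, and knockout 3 was highest as for Mettl7b.

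Among the genes that lie next to the 10 in the RefSeq table of GRCm38.p6, 3 entries to each side, 25 of 60 were measured and 15 tested. Of the 15, 1 passed, higher in knockout, while 3.09% of all 11159 tested genes were called higher and 1.67% lower. It was Pcolce2 near Paqr9, a gene for an enhancer of procollagen processing. It read 428.9, 1077.8, 437.2 and 649.2 in knockout livers, against 95.4, 154.2 and 131.7 in wild type livers (2.13 ± 0.31, limma adjusted p = 0.0079), and 1 neighbour passed under each alternative of the fit. The median log2 fold change of the 15 was -0.19, against -0.0013 over all tested genes.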

How the data were processed

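Each array has 1 deposited intensity, on a linear scale, for every probe set. The submitters' processing notes name GCOS, with no version. How probes were summarised is not given in the sources. Groups come from the sample titles. Values were taken as log2(intensity + 16), a scale that understates changes of dim probe sets. Without 64 control probe sets, those whose mean exceeded the median were kept (22518) and compared between 4 knockout and 3 wild type arrays in limma 3.58.1 under R 4.3.3 (lmFit, eBayes with a trend, no covariates). Calls needed an adjusted p (Benjamini-Hochberg) under 0.05. Fold changes of the 10 genes come from a fit without that filter. Named genes were all 10 genes, relatives and neighbours past the threshold, the brightest of a family and the 6 genes most alike. Other genes were named after their values were seen. The 10 genes and all lists were chosen with earlier results of these data known. The fit was tested on simulated data. Same-numbered arrays did not deviate together (r of 0.0866, -0.0562 and 0.0553), so the numbers were not taken as pairs. In the platform annotation, 34958 probe sets had 1 symbol, 932 had several and 9211 had no symbol. The knocked-out gene's own transcript is left out here, so the labels were not checked by it. Alternatives covered the offset, scaling, filter, variance model, replicate block, shared probe sets (here all names ending in _a_at, _s_at or _x_at) and each array left out. The number of arrays limits the precision.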

Additional observations from a re-analysis of the deposited data

Results flagged for a closer look

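In 41 probe sets of the named genes, the 4 knockout arrays were searched for 1 array far from the other 3, and chance marks about 1 group in 20. Knockout 3 was the array marked in each of 3 probe sets. For Ctrb1 and Cpa1, which entered the search after their values in knockout 3 had been seen, this restates what was seen. Mettl7b read 2799.9 in knockout 3, and the gap to the nearest knockout array took 0.905 of the group's range on the log2 scale. Ctrb1 read 3162.7 in knockout 3 and Cpa1 read 497.9 there, with gaps of 0.952 and 0.959 of the range. The 3 wild type arrays were too few for this search.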

How the results depend on the processing

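Over the 13 probe sets and 12 alternatives each, 155 of 156 values moved by less than the spread between replicates. The exception was Depdc7, which moved to 1.57 at an offset of 64. The spread was the pooled SD of the same arrays, and leaving 1 array out cannot move a fold change past it. The block gave the fold changes found without knockout 4. For these settings the count was therefore fixed in advance. Mettl7b, which fell from 2.92 to 2.23 without knockout 3, was counted among the 155. The median of the 10 genes was 1.90 at an offset of 64, 1.97 with the replicate block and 1.83 to 2.22 when 1 array was left out. It was 2.25 over 9 genes when the probe sets called shared here, by name ending alone, were left out. The fit with the replicate number as a block also leaves out knockout 4, which has no partner. Leaving out knockout 4 without a block gave the same median of 1.97, as it must, since this block does not change the fold changes. That fit gave 375 calls. Its 5 calls among relatives were 5 higher and 0 lower, against 3 higher and 2 lower with the block. The 955 calls became 473 without the filter on dim probe sets, 584 without a trend, 352 with the block and without knockout 4, 611 without shared probe sets, 142 at a threshold of 0.01 and 127 to 1006 without 1 array. The 8 calls among relatives became 5 without the filter, 5 without a trend and 1 to 9 without 1 array. They became 5 with the block and without knockout 4 (Adipor2, Mttp and Surf4 lost). Without shared probe sets they also became 5 (Adipor2, Surf4 and Sec14l4 lost). Neighbour calls became 3 among 32 tested protein-coding neighbours, an alternative chosen after seeing the data. Of these calls, Rgcc near Vwa8 and Sec14l4 near Sec14l2 were lower. The cause of these moves was not tested, apart from the fewer probe sets or arrays that some of these settings use. Probe sets under an intensity of 50, which made up 35.4% to 39.4% of an array, limit what can be read of dim genes such as the germ cell markers.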

Other observations

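A further probe set is annotated to both Paqr9 and C730029A08Rik and was not counted above. It read 3389.3, 7312.1, 5441.0 and 6502.9 in knockout livers, against 884.3, 1837.1 and 965.3 in wild type livers, a log2 fold change of 2.21 ± 0.30, beside 2.25 and 1.98 for the 2 probe sets of Paqr9 alone. Knockout 1 was again the lowest knockout liver, as in the dimmer of those probe sets. The summed T cell markers, of which 4 were measured and 0 bright enough to be tested, were 98.0 to 150.8 in knockout and 155.0 to 196.3 in wild type livers. The summed epidermis markers were 383.0 to 440.4 in knockout and 452.8, 461.3 and 2247.4 in wild type 1, 2 and 3, so the high end was wild type 3 alone. The count of 955 calls was 127 without that array, and the part of these transcripts in it was not tested.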
